A study of Homo sapiens with 6 samples.

Results

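The RAB GTPases were taken as every gene of the deposited count table whose name is RAB followed by a number and at most 1 letter from A to D, which gave 59 of the 33451 genes listed. They were measured by mRNA sequencing of MDA-MB-453 cells, an established human breast cancer line that expresses the androgen receptor. The control group (CG, n = 3 libraries) was cultured with 0.1% alcohol as the solvent, and the experimental group (EG, n = 3 libraries) with 100 nM 25(OH)D, 25-hydroxyvitamin D, the main circulating form of the vitamin. All 6 libraries were made on day 5 from the same line, grown in DMEM with fetal bovine serum and antibiotics, so the results hold for 1 cell line, 1 dose and 1 time. The comparison asked which RAB genes differed in mRNA level between EG and CG.

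RAB proteins are small GTPases that direct membrane traffic. A RAB is carried to a membrane by a prenyl anchor, is switched on when an exchange factor loads GTP, and then recruits effectors such as tethers, motors and adaptors that move, dock or fuse a vesicle. An activating protein triggers GTP hydrolysis, and GDP dissociation inhibitors take the inactive RAB back off the membrane. Different RABs mark different compartments, from the endoplasmic reticulum and Golgi to early, recycling and late endosomes and secretory vesicles, and in breast epithelial cells they govern secretion, receptor recycling and cell polarity.

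The 6 libraries held between 33268860 and 40928176 counts, and 3 counts amounted to 0.0720 to 0.0921 CPM, a unit that sets each count against its library's size after TMM scaling. The share of counts from mitochondrial genes was 7.85% to 7.99% in CG and 8.89% to 9.24% in EG. All 10 markers of the breast line were present, with a summed level of 13007 to 13298 CPM in CG and 10639 to 10777 CPM in EG. By edgeR 8 of the 10 differed at an adjusted p under 0.05 (80.0%, against 33.8% of all genes), 4 higher and 4 lower. The log2 fold changes of the 10 lay between -0.80 and 0.84, with a median of 0.045. Of the markers of other cell types, COL1A1 was the 1 fibroblast marker tested of 5 in the table (5 summed to between 36.5 and 39.0 CPM in CG and between 32.0 and 34.7 CPM in EG), and CD68 was the 1 immune marker tested of 6 (6 summed to between 4.52 and 6.05 CPM in CG and between 13.5 and 19.5 CPM in EG). The 3 endothelial markers in the table stayed at or under 12 counts in every library. CD68 rose with EG (log2 fold change 1.69), and its part in the differences given here was not tested. On the same strand, CD68 shares 1789 exon bases with another gene. In bulk RNA, fewer cells of a type and less RNA per cell cannot be told apart.

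Of the 59 RAB genes, 50 passed the low-count filter and 9 did not. The 9 were RAB1C, RAB7B, RAB31, RAB32, RAB34, RAB39B, RAB40A, RAB42 and RAB44, none with more than 8 counts in any library, so they were not tested. With the filter dropped, 0 of the 9 had an adjusted p under 0.05. RAB42, with 0 counts in every CG library and 0, 4 and 4 in the EG libraries, then had an unadjusted p of 0.0489 by edgeR (adjusted p = 0.191) and passed the fold limit given below, on a fitted fold that depends on the prior count. Among the 50, 18 RAB genes (36.0%) differed between EG and CG at an adjusted p under 0.05, against 33.8% of all 18183 genes tested, so the share of RAB genes called was close to that of the whole table. Of the 18, 12 rose (24.0% of those tested, against 17.3% of all genes) and 6 fell (12.0%, against 16.5%). The split between rising and falling genes depended on the scaling, with 9 higher and 7 lower by upper-quartile factors and 9 higher and 8 lower by library sizes alone. The median log2 fold change of the 50 was 0.050, against -0.011 over all genes tested, with 27 values above 0 and 23 below. The libraries of EG and CG did not overlap in 28 of the 50, against 45.7% of all genes. Beyond an absolute log2 fold change of 1 with an unadjusted p under 0.05 were RAB20, which was higher, and RAB3B and RAB36, which were lower, that is 3 of 50 against 6.65% of all genes (4.02% higher and 2.63% lower).

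**Figure D1:**
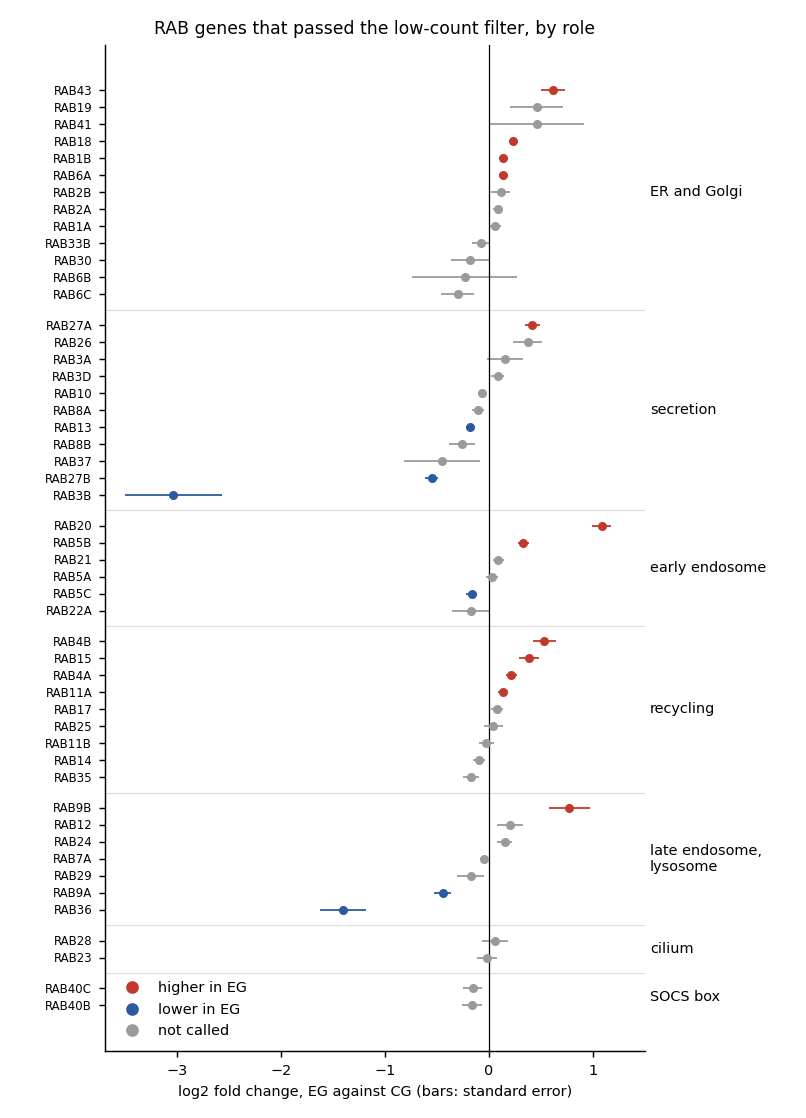
Log2 fold change of EG against CG (x axis) for the 50 RAB genes that passed the low-count filter, in rows grouped by role, with bars for the standard error of the fit to 3 libraries in each group. Red points are the 12 genes called higher, blue points the 6 called lower and grey points the 32 not called, and most points lie within 0.5 of 0, with RAB20 farthest to the right and RAB3B farthest to the left.

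The levels of the RAB genes spanned a wide range on the RPKM scale, on which counts are divided by gene length and library total so that genes can be compared. RAB7A, the RAB of late endosomes and lysosomes, was the highest, at 175 ± 4.58 RPKM in CG and 164 ± 2.91 RPKM in EG (SD, n = 3 each), and it was not called (log2 fold change -0.05, adjusted p = 0.324, edgeR's quasi-likelihood test, Benjamini-Hochberg). RAB13, which serves traffic to epithelial junctions, followed at 163 ± 2.95 and 139 ± 4.04 RPKM. Next came RAB1B at 80.4 ± 2.54 and 85.7 ± 2.34 RPKM, and RAB10 at 49.2 ± 1.39 and 45.6 ± 0.0967 RPKM. In CG the levels of RAB5C (40.8 ± 2.30 RPKM) and RAB6A (39.5 ± 0.497 RPKM) lay within their spread of each other. In EG RAB6A (42.0 ± 0.820 RPKM) was above RAB5C (35.2 ± 1.59 RPKM). These 6 genes together took between 63.5% and 64.1% of the summed RPKM of the RAB genes in the CG libraries and between 61.6% and 61.7% in the EG libraries. The summed RPKM was between 854 and 864 in CG and between 824 and 832 in EG, but the RPKM values carry no TMM scaling. With it, the summed level of the RAB genes was between 2881 and 2911 CPM in CG and between 2876 and 2910 CPM in EG, and the groups overlapped.

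**Figure D2:**
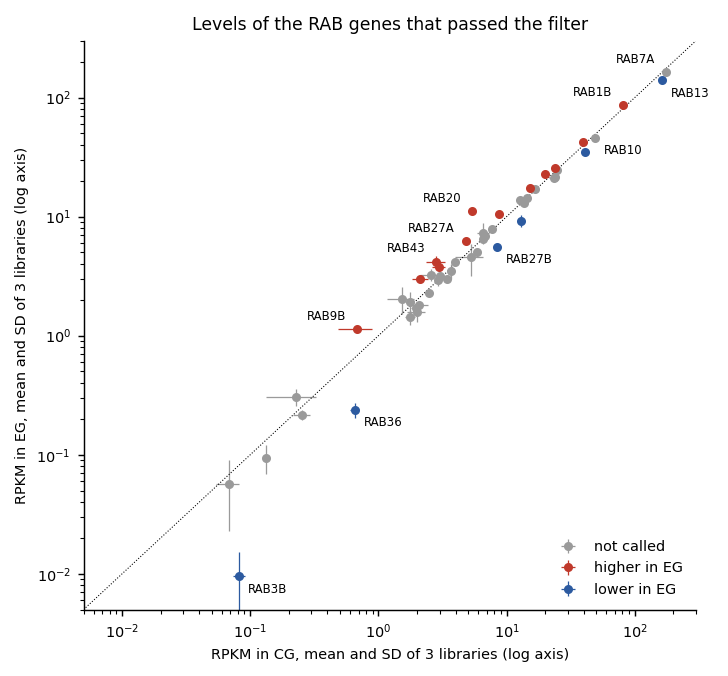
Mean RPKM of each of the 50 RAB genes that passed the filter in CG (x axis) and EG (y axis), both on log axes, with bars for the SD of 3 libraries and a dotted line where both groups are equal. The most abundant genes, RAB7A and RAB13, lie near the line, and the genes farthest from it, RAB3B, RAB36 and RAB20, have low or middle levels.

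Among the RABs of the endoplasmic reticulum and Golgi, 13 of 14 were tested. Of the 13, 4 rose (30.8%, against 17.3% of all genes) and 0 fell (against 16.5%), that is 30.8% called against 33.8%. RAB43, which acts in traffic through the Golgi, had 473, 541 and 589 counts in the CG libraries and 666, 900 and 699 in the EG libraries, equal to 11.4, 14.3 and 16.0 CPM and to 18.9, 23.4 and 21.5 CPM. Every EG library was above every CG library, and the log2 fold change was 0.62 (standard error, SE, 0.115, adjusted p = 7.47e-04 by edgeR). RAB43 shares 3956 of its 4991 exon bases on the same strand with the readthrough gene ISY1-RAB43, whose log2 fold change was -0.18, so reads of both genes cannot be told apart over these bases. RAB18, which sits on the endoplasmic reticulum and on lipid droplets, had 93.4, 93.0 and 92.7 CPM in CG and 112, 107 and 108 CPM in EG. Its groups lay well apart for a small change, a log2 fold change of 0.23 (SE 0.0420, adjusted p = 6.33e-04 by edgeR). RAB1B, which directs transport from the endoplasmic reticulum to the Golgi, had 155, 164 and 157 CPM in CG and 171, 179 and 175 CPM in EG. The groups did not overlap, and the log2 fold change was 0.14 (SE 0.0405, adjusted p = 0.0178). RAB6A, the RAB of retrograde Golgi transport, rose by a similar amount (log2 fold change 0.13, adjusted p = 0.0149). Of its 2007 exon bases, RAB1B shares 265 with RP11-867G23.3 and 589 with RP11-867G23.4, both on the opposite strand. Their log2 fold changes were 0.18 and -0.0041, and the strand setting of the counting is not given. The calls of RAB1B and RAB6A were lost with upper-quartile factors (adjusted p = 0.0962 and 0.0902) and when single libraries were left out, RAB1B without CG replicate 1 (adjusted p = 0.0573) or EG replicate 2 (0.0690) and RAB6A without CG replicate 2 (0.0613). The 9 not called were RAB1A, RAB2A, RAB2B, RAB6B, RAB6C, RAB19, RAB30, RAB33B and RAB41, with log2 fold changes between -0.30 and 0.46. RAB6C is a near copy of RAB6A, so the division of reads between them is uncertain.

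Among the RABs of secretion and of traffic to the cell surface, 11 of 12 were tested. Of the 11, 1 rose (9.1%, against 17.3% of all genes) and 3 fell (27.3%, against 16.5%), that is 36.4% called against 33.8%. RAB3B (chromosome 1, 51907956 to 51990764, minus strand of GRCh38), which acts in regulated exocytosis, had 38, 42 and 40 counts in the CG libraries and 7, 2 and 4 in the EG libraries. The groups lay far apart, but the difference rested on few reads, and its level was low throughout, at 0.0819 ± 0.00839 RPKM in CG and 0.00953 ± 0.00560 RPKM in EG (SD, n = 3 each). The log2 fold change was -3.04 (SE 0.464, adjusted p = 1.39e-04 by edgeR), an 8.22-fold lower level in EG. In the fits that omit 1 library it stayed between -3.55 and -2.64, and RAB3B was called in all 6 of these fits.

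RAB27A and RAB27B, a pair of paralogs that dock secretory lysosomes and exosome-bearing vesicles at the cell surface, moved in opposite directions. RAB27A (chromosome 15, 55202966 to 55319113, minus strand) had 24.4, 28.1 and 26.8 CPM in CG and 38.2, 34.5 and 33.1 CPM in EG. The EG libraries were all higher, with a log2 fold change of 0.42 (SE 0.0741, adjusted p = 5.07e-04 by edgeR). RAB27B (chromosome 18, 54717860 to 54895516, plus strand) had 59.4, 59.6 and 65.3 CPM in CG and 38.6, 42.7 and 44.6 CPM in EG. Here the EG libraries were all lower, with a log2 fold change of -0.55 (SE 0.0643, adjusted p = 1.11e-05). On the RPKM scale RAB27A made up 35.3%, 38.4% and 35.3% of the pair in the CG libraries and 56.8%, 51.8% and 49.7% in the EG libraries. RAB27B was thus the larger part in every CG library, whereas in EG the paralogs were near parity. The summed level of the pair was 13.2 ± 0.569 RPKM in CG and 11.7 ± 0.0739 RPKM in EG. RAB27B shares 341 exon bases with an antisense gene that fell by 0.56 on the log2 scale, and RAB27A shares 183 with PIGBOS1, whose log2 fold change was 0.0036.

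RAB13, the most abundant RAB of this group, had 448, 432 and 447 CPM in CG and 400, 389 and 378 CPM in EG. All EG libraries were lower, although the change was small (log2 fold change -0.19, SE 0.0363, adjusted p = 0.00109 by edgeR). The 7 not called were RAB3A, RAB3D, RAB8A, RAB8B, RAB10, RAB26 and RAB37, with log2 fold changes between -0.45 and 0.37. Of these, RAB26, a RAB of secretory granules, lay nearest the threshold (log2 fold change 0.37, adjusted p = 0.0565), and it was called with DESeq2 (adjusted p = 0.0449). RAB10 was called lower with library sizes alone (adjusted p = 0.0409 by edgeR). With the filter, limma also called it lower on log2(RPKM + 1) (0.0383) and log2(RPKM + 0.1) (0.0403). By edgeR, RAB8A was called lower without CG replicate 3 (adjusted p = 0.0398) and RAB8B without EG replicate 3 (0.0361).

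**Figure D3:**
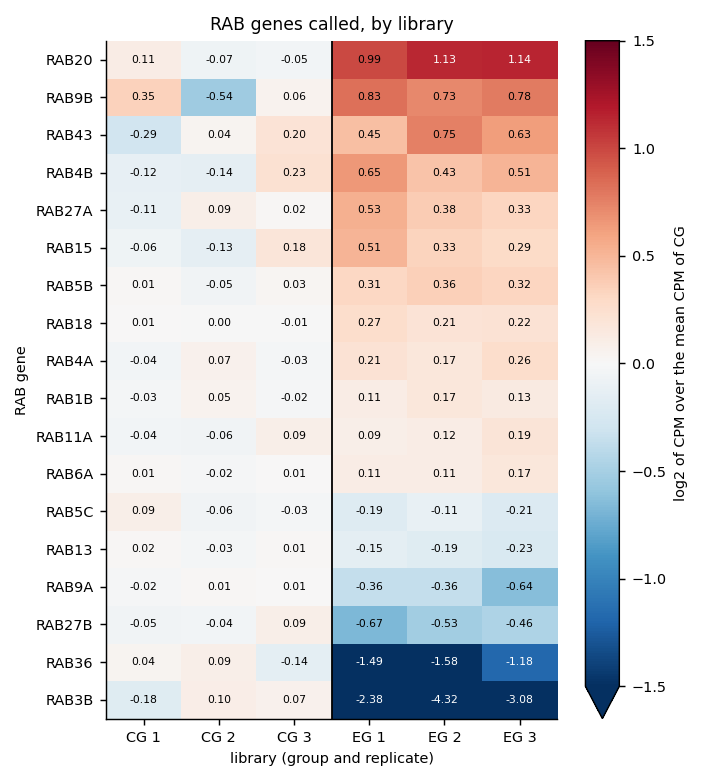
Level of each of the 18 RAB genes called (rows) in each library (columns, 3 CG and 3 EG), as the log2 of its CPM over the mean CPM of CG, printed in each cell and coloured from blue (lower) through white to red (higher), with colours capped at an absolute value of 1.5. The rows were chosen by their call, and in every row the 3 EG libraries lie on 1 side of 0. RAB20, RAB3B and RAB36 have the strongest colours.

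Among the RABs of early endosomes, 6 of 7 were tested. Of the 6, 2 rose (33.3%, against 17.3% of all genes) and 1 fell (16.7%, against 16.5%), that is 3 of 6 called against 33.8%. RAB20 (chromosome 13, 110523066 to 110561733, minus strand), which is found on endosomes and maturing phagosomes, showed the largest rise of all RAB genes tested. It had 364, 292 and 289 counts in CG and 565, 682 and 582 counts in EG, equal to 8.74, 7.72 and 7.85 CPM and to 16.1, 17.7 and 17.9 CPM. The groups were clearly separated, with 5.42 ± 0.384 RPKM in CG and 11.2 ± 0.676 RPKM in EG (SD, n = 3 each). This was a log2 fold change of 1.09 (SE 0.0909, adjusted p = 3.88e-07 by edgeR), a 2.12-fold higher level in EG. In the fits that omit 1 library it stayed between 1.06 and 1.15.

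The RAB5 paralogs, which control fusion of early endosomes, diverged by smaller amounts. RAB5B had 57.0, 54.6 and 57.9 CPM in CG and 70.0, 72.5 and 70.6 CPM in EG, and RAB5C had 118, 107 and 108 CPM in CG and 97.1, 103 and 96.1 CPM in EG. The groups did not overlap in either gene, and the log2 fold changes were 0.33 for RAB5B (SE 0.0491, adjusted p = 1.08e-04 by edgeR) and -0.17 for RAB5C (SE 0.0503, adjusted p = 0.0185). RAB5A was not called (log2 fold change 0.03, with the sign turned by other scalings). The share of RAB5B in the summed RPKM of the RAB5 genes was 13.6% ± 0.401 in CG and 17.7% ± 0.271 in EG, and that of RAB5C was 63.8% ± 1.49 and 58.6% ± 1.47 (SD, n = 3 each). The call of RAB5C was lost without CG replicate 1 (adjusted p = 0.116), EG replicate 1 (0.0797) or EG replicate 3 (0.0715), and 794 of its 2761 exon bases lie also in an unnamed gene on the same strand with nearly the same counts (log2 fold change -0.17). RAB21 and RAB22A were not called. RAB22A, a RAB of early endosome sorting, had 61.9, 43.5 and 39.9 CPM in CG and 35.0, 35.6 and 58.1 CPM in EG. CG replicate 1 and EG replicate 3 stood above the other libraries, so the groups overlapped (log2 fold change -0.18, adjusted p = 0.484), and the result turned on these libraries. Without EG replicate 3 the log2 fold change was -0.44 and the gene was called (adjusted p = 0.0208), and without CG replicate 1 it was 0.044 (adjusted p = 0.869). The gene was called lower also when the low-count filter was dropped (adjusted p = 0.0431).

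Among the RABs of recycling endosomes, all 9 were tested. Of the 9, 4 rose (44.4%, against 17.3% of all genes) and 0 fell (against 16.5%), that is 44.4% called against 33.8%. With upper-quartile factors and with library sizes alone, RAB11A was not called (adjusted p = 0.180 and 0.164) and RAB35 was called lower (0.0479 and 0.0459), so that 3 were higher and 1 lower. RAB4B, which acts in rapid recycling of receptors to the surface, had 315, 284 and 356 counts in CG and 455, 427 and 383 counts in EG, equal to 7.57, 7.51 and 9.67 CPM and to 12.9, 11.1 and 11.8 CPM. The EG libraries were all above the CG libraries, with a log2 fold change of 0.53 (SE 0.115, adjusted p = 0.00231 by edgeR). RAB4B shares 797 exon bases with RAB4B-EGLN2 and 435 with MIA-RAB4B, readthrough genes whose log2 fold changes were 0.35 and 0.68. Its paralog RAB4A rose by 0.21 on the log2 scale (adjusted p = 0.00447), so the summed level of both went from 22.2 ± 0.764 to 25.6 ± 0.669 RPKM (SD, n = 3 each). RAB15, which acts between early and recycling endosomes, rose by 0.38 on the log2 scale (adjusted p = 0.00746), and lost its call with limma on log2(RPKM + 1) (adjusted p = 0.0521).

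RAB11A, which defines the perinuclear recycling endosome, was the most abundant of this group, with 131, 129 and 143 CPM in CG and 143, 146 and 153 CPM in EG. CG replicate 3 and EG replicate 1 were almost equal, and the log2 fold change was 0.13 (SE 0.0485, adjusted p = 0.0480 by edgeR). The call was held in 1 of the 6 fits that leave out a library, that without CG replicate 3. In the other 5 the adjusted p was between 0.0512 and 0.179, and the log2 fold change between 0.11 and 0.16. RAB11B, RAB14, RAB17, RAB25 and RAB35 were not called, with log2 fold changes between -0.17 and 0.08. RAB25, the epithelial RAB11 relative studied in breast and ovarian cancer, was at 6.53 ± 0.472 RPKM in CG and 6.52 ± 0.268 RPKM in EG (SD, n = 3 each).

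Among the RABs of late endosomes and lysosomes, 7 of 9 were tested. Of the 7, 1 rose (14.3%, against 17.3% of all genes) and 2 fell (28.6%, against 16.5%), that is 42.9% called against 33.8%. RAB36, which acts in the positioning of late endosomes and lysosomes (chromosome 22, 23145326 to 23164350, plus strand), had 113, 106 and 88 counts in CG and 33, 34 and 38 counts in EG. Each EG library was below every CG library, and the log2 fold change was -1.41 (SE 0.218, adjusted p = 1.63e-04 by edgeR). Its level was low, at 0.651 ± 0.0565 RPKM in CG and 0.239 ± 0.0346 RPKM in EG (SD, n = 3 each).

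RAB9A and RAB9B, which return cargo from late endosomes to the Golgi, formed another pair that moved in opposite directions. RAB9A (chromosome X, 13689125 to 13710506, plus strand) had 26.6, 27.2 and 27.1 CPM in CG and 21.0, 21.0 and 17.3 CPM in EG. The CG libraries were nearly equal and all EG libraries were lower, with a log2 fold change of -0.44 (SE 0.0802, adjusted p = 5.78e-04 by edgeR). RAB9B (chromosome X, 103822322 to 103832228, minus strand) had 134, 66 and 97 counts in CG and 158, 161 and 142 counts in EG, equal to 3.22, 1.74 and 2.63 CPM and to 4.49, 4.19 and 4.36 CPM. The CG libraries of RAB9B were spread over a wider range than those of EG, but did not reach them (log2 fold change 0.77, SE 0.199, adjusted p = 0.00754). RAB9B was the minor paralog in every library, with 5.04% ± 1.46 of the summed RPKM of the pair in CG and 11.1% ± 1.20 in EG. The summed level fell from 13.6 ± 0.0584 to 10.3 ± 1.03 RPKM (SD, n = 3 each). RAB7A, RAB12, RAB24 and RAB29 were not called, with log2 fold changes between -0.18 and 0.20. The most abundant of this group, RAB7A, had 477, 469 and 457 CPM in CG and 459, 439 and 458 CPM in EG.

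**Figure D4:**
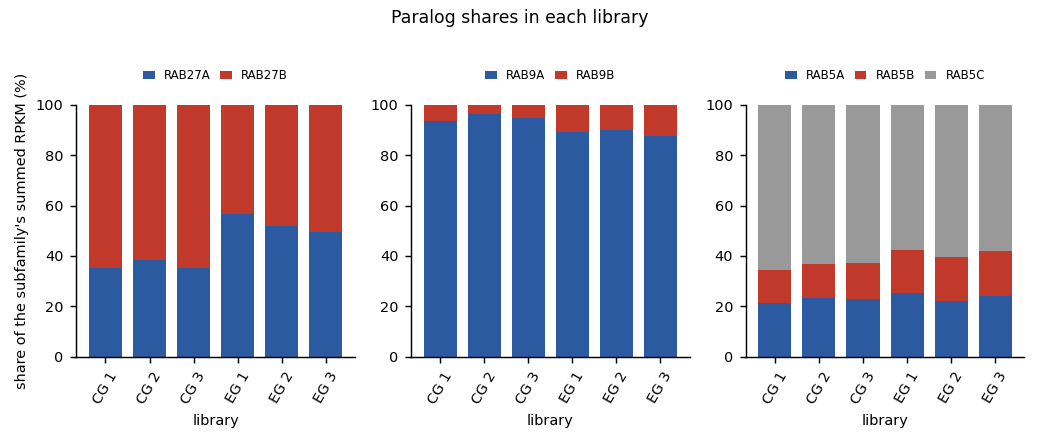
Share of each paralog in the summed RPKM of its subfamily (y axis, %) in each of the 6 libraries (x axis) for RAB27, RAB9 and RAB5, with stacked bars that add to 100%. The RAB27A part is larger in every EG library than in every CG library, as are the RAB9B and RAB5B parts, while RAB5A shows no such separation.

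No member of the remaining groups was called, against 33.8% of all genes. RAB23 and RAB28, which act at the primary cilium, had log2 fold changes of -0.02 and 0.06, and RAB23 had 17.4, 18.1 and 18.0 CPM in CG and 20.5, 16.4 and 15.9 CPM in EG. RAB23 shares 2842 of its 4926 exon bases with BAG2 on the opposite strand, and BAG2 had a log2 fold change of -0.17. The strand setting of the counting is not given. The RAB40 proteins carry a SOCS box, with which they serve in ubiquitin ligase complexes. Of these, RAB40B and RAB40C had log2 fold changes of -0.17 and -0.16, and RAB40C had 14.8, 14.6 and 13.2 CPM in CG and 11.9, 12.6 and 13.8 CPM in EG. The groups overlapped in all 4 genes.

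The promoters of the RAB genes were read from RefSeq sequences of GRCh38.p14, as the 250 bases before each annotated start, which matched 47 of the 59 genes with 68 windows. RAB9A (chrX:13688878-13689127, plus strand) and RAB9B (chrX:103832258-103832507, minus strand) are shown because they are paralogs that moved in opposite directions and have 1 annotated start each. RAB4A (chr1:229270861-229271110, plus strand) and RAB5A (chr3:19946847-19947096, plus strand) are shown because they hold an E-box (CACGTG, in capitals), the motif bound by many basic helix-loop-helix factors, of which the first gene rose and the second was not called.
RAB9A: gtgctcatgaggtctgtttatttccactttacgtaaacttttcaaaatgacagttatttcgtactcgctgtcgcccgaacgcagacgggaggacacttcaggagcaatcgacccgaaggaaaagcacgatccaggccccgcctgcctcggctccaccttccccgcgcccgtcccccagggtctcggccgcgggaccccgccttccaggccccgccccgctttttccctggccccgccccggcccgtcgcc
RAB9B: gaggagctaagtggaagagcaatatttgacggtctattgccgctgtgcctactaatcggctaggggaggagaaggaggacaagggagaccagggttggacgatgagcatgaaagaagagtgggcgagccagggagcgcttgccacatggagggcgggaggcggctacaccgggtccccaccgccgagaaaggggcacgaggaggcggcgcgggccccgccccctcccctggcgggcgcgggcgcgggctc
RAB4A: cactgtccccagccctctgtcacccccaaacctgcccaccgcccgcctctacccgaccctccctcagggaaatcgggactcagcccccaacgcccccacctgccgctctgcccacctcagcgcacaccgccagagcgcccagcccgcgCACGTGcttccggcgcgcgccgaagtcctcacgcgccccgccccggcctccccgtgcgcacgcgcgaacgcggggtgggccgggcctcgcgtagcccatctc
RAB5A: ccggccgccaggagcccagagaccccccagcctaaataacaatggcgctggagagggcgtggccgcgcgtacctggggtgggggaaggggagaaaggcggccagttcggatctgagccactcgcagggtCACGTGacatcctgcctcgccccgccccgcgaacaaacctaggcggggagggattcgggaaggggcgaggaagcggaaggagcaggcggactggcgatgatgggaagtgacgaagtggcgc

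The E-box, which reads the same on both strands, was present in 5 of the 68 RAB windows (7.35%), against 6.34% of all 35116 windows, so the RAB promoters held it about as often as the rest. The 5 genes were RAB4A, RAB5A, RAB21, RAB24 and RAB31, of which RAB4A was called. In RAB4A it began 102 bases before the start, and in RAB5A 121 bases before it. Direct repeats of the vitamin D receptor half-site AGGTCA, or of the variant half-sites GGTTCA and AGTTCA, in any pairing with 3 bases between them, searched on both strands, were found in 0 of the 68 windows, against 0.0342% of all windows. These letters are therefore not in the windows searched, and sites farther from the start were not analysed here.

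Proteins that modify, switch or read RABs were described as 5 lists, of which 175 genes were tested. Of these, 69 (39.4%) were called, against 33.8% of all genes, with 50 higher (28.6%, against 17.3%) and 19 lower (10.9%, against 16.5%). Exon bases are shared with another gene by 91 of the 175 and by 34 of the 69. Of 9 genes that prenylate RABs or return them from membranes, 6 rose (66.7%, against 17.3% of all genes) and 0 fell (against 16.5%). The median log2 fold change of the 9 was 0.22. Without CG replicate 2, and likewise without EG replicate 2, 3 of these genes were called. RABGGTB, the beta subunit of the RAB geranylgeranyl transferase, rose from 46.0 ± 0.510 to 68.8 ± 4.39 CPM (SD, n = 3 each), which is a log2 fold change of 0.58 (SE 0.0564, adjusted p = 1.74e-06 by edgeR). On the same strand RABGGTB shares 157 exon bases with ACADM and 84, 72 and 79 with SNORD45A, SNORD45B and SNORD45C. The part of these overlaps in its rise was not tested. The alpha subunit RABGGTA rose by 0.48 on the log2 scale (adjusted p = 0.0370).

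Of the RAB effectors 33 of 65 tested (50.8%) were called, against 33.8% of all genes, with 24 higher (36.9%, against 17.3%) and 9 lower (13.8%, against 16.5%) and a median log2 fold change of 0.084. SYTL5, a synaptotagmin-like effector of RAB27, had 166, 150 and 152 counts in CG and 1102, 1211 and 1022 counts in EG. The groups were far apart, and the log2 fold change was 2.96 (SE 0.0793, adjusted p = 1.58e-12 by edgeR). MYO5B, a myosin motor that binds RAB11, rose from 317 ± 14.9 to 772 ± 18.1 CPM (log2 fold change 1.29, SE 0.0405, adjusted p = 8.32e-12). MICAL3, an actin-oxidising enzyme that binds RAB8, rose from 154 ± 3.81 to 356 ± 10.7 CPM (SD, n = 3 each), which is a log2 fold change of 1.21. RAB11FIP1, an adaptor of RAB11, rose from 42.1 ± 1.84 to 94.8 ± 5.39 CPM (log2 fold change 1.17). MICAL3 shares 3644 exon bases with a gene on the same strand, and RAB11FIP1 shares 2385 with a gene on the opposite strand. MYO5B shares 551 exon bases with a gene on the same strand and 229 with SNHG22 on the opposite strand. The part of these overlaps in the rises was not tested. SYTL2, another synaptotagmin-like effector of RAB27, led the falling genes by p, from 51.3 ± 1.95 to 29.7 ± 1.59 CPM (log2 fold change -0.79, adjusted p = 1.76e-07).

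The switches of the RAB cycle were called about as often as other genes. Of 55 exchange factors, with a median log2 fold change of 0.0090, 17 (30.9%, against 33.8% of all genes) were called. Of the 55, 12 rose (21.8%, against 17.3%) and 5 fell (9.1%, against 16.5%). ALS2CL, which binds RAB5, had the smallest p and rose from 10.5 ± 0.352 to 24.7 ± 0.585 CPM (SD, n = 3 each), which is a log2 fold change of 1.22 (SE 0.0738, adjusted p = 1.12e-08 by edgeR). RIN2, an exchange factor for RAB5, rose by 1.65 on the log2 scale (3.56 ± 1.03 to 11.2 ± 1.98 CPM), and DENND3, an exchange factor for RAB12, rose by 1.02. KIAA1147, now named DENND11, led the falling genes by p (log2 fold change -0.47, adjusted p = 5.07e-06). The exchange factor with the most negative log2 fold change was RAB3IL1, which acts on RAB3 and RAB8, with 63, 44 and 56 counts in CG and 22, 22 and 6 in EG (log2 fold change -1.58, SE 0.378, adjusted p = 0.00483). Of 41 activating proteins, with a median of 0.091, 12 (29.3%, against 33.8% of all genes) were called. Of the 41, 7 rose (17.1%, against 17.3%) and 5 fell (12.2%, against 16.5%). TBC1D31 had the smallest p, rising from 33.4 ± 2.18 to 55.7 ± 1.23 CPM (SD, n = 3 each), which is a log2 fold change of 0.74 (SE 0.0606, adjusted p = 3.23e-07). TBC1D1, which restrains RABs of glucose transporter traffic, rose from 2.65 ± 0.659 to 9.02 ± 0.669 CPM (log2 fold change 1.77), and TBC1D10C rose by 1.11 on the log2 scale. TBC1D14, which acts on recycling endosomes in autophagy, led the falling genes by p (log2 fold change -0.36, adjusted p = 2.25e-04). Of 7 RAB-like GTPases tested 2 (28.6%, against 33.8% of all genes) were called. RASEF rose (log2 fold change 0.28), and RABL3 fell from 80.0 ± 5.16 to 38.3 ± 2.63 CPM (SD, n = 3 each), which is a log2 fold change of -1.06. TBC1D31 (396), TBC1D10C (186), TBC1D14 (2565) and RABL3 (158) share exon bases with genes on the opposite strand. KIAA1147 shares 83 with a gene on the same strand. The part of these overlaps in the changes was not tested.

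**Figure D5:**
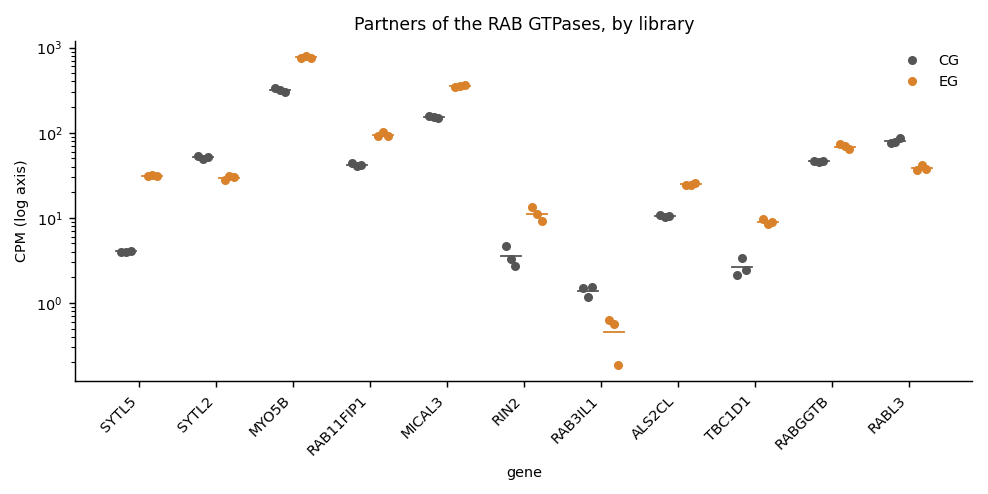
Level of 11 partner genes of the RABs (x axis) in CPM on a log axis (y axis), with a point for each of the 3 CG libraries (grey) and 3 EG libraries (orange) and a bar at each group's mean. All 11 were picked from the genes called, and the groups are apart in each. SYTL5 shows the widest gap among those that are higher in EG, and SYTL2, RAB3IL1 and RABL3 are lower in EG.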

How the data were processed

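Libraries of MDA-MB-453 cells (3 CG, 3 EG) were grouped by the treatment in the labels. The authors deposited raw counts (whole reads for each gene, not normalized) and RPKM values, which equal the count divided by gene length and library total. The submitters' processing notes name Trimmomatic 0.36, featureCounts, Subread 1.5.1, edgeR 3.12.1 and GRCh38, and gene positions are those of the count table. The aligner, the annotation release and the strand setting of the counting are not given in the sources used here. The library kit was stranded and paired-end. Counts of 2 (14976 values) were more frequent than counts of 1 (6422), and how mates were counted is not given in the sources used here, so low counts may hold fewer independent molecules than they state.

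The counts were fitted with edgeR 4.0.16 in R 4.3.3. Library sizes were scaled by TMM, genes were kept by the edgeR filter with its minimum count of 10, and EG was compared with CG by the quasi-likelihood test with no covariates. P-values were adjusted by Benjamini-Hochberg across the 18183 genes kept, and a gene was called at an adjusted p under 0.05. The biological coefficient of variation was 0.0788, so with 3 libraries in each group small changes of genes with low counts are not detectable. The study's methods speak of biological replicates, and nothing says that they came from separate cultures, so p-values measure the spread between these libraries. No pair of libraries in a group agreed within sampling noise (chi-square per gene of 4.01 or more). Levels of different genes were compared on the RPKM scale only, and shares of paralogs are descriptions without a test.

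The members, the roles, the 5 partner lists and the tests were chosen with earlier results of these data known. Values in each library are given for called members with an absolute log2 fold change of 0.5 or more and, in each role, for the called member of lowest p in each direction and the most abundant member. In each partner list, the called member of lowest p in each direction is named, with up to 5 called members past an absolute log2 fold change of 1 in each direction whose higher group averaged 100 counts or more. RAB5B, RAB22A, RAB25, RAB26, RABGGTA and the genes of the closing observations were named after their values were seen, as was RAB3IL1. Alternatives were the normalization, the filter, DESeq2 1.42.0, limma 3.58.1 on log2 of RPKM with 1 or 0.1 added, the replicate number as a block, the omission of mitochondrial genes, of genes that share exon bases and of each library in turn. Other steps used Python 3.11.15 with pandas 2.3.3, numpy 2.4.6 and matplotlib 3.10.9.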

Additional observations from a re-analysis of the deposited data

How the results depend on the processing

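No RAB gene that was called changed direction under the alternatives run. Of 800 values of single genes, 735 kept direction and call. In 20 the sign of a gene that was not called turned. For RAB25 the log2 fold change was -0.000129 with upper-quartile factors, -0.00188 with library sizes alone, -0.00158 with limma on log2(RPKM + 1), filtered or not, and -0.00161 on log2(RPKM + 0.1), and for RAB5A -0.00955, -0.0123, -0.0125 and -0.0134. Across the fits that omit 1 library it ranged from -0.14 to 0.062 for RAB23, from -0.039 to 0.13 for RAB28, from -0.44 to 0.044 for RAB22A, from -0.085 to 0.025 for RAB11B, from -0.010 to 0.082 for RAB5A, from -0.71 to 0.14 for RAB6B and from -0.024 to 0.25 for RAB3A. RAB1B, RAB6A and RAB11A lost their call with upper-quartile factors, library sizes alone and limma on RPKM, and RAB15 on log2(RPKM + 1). Without a filter that scale also lost RAB5C (adjusted p = 0.0558), RAB4B (0.0547), RAB43 (0.0577) and RAB9B (0.0942). The number of RAB genes called was 18 in the fit reported (36.0%, against 33.8% of all genes), 18 with RLE size factors (36.0%, 33.7%), 16 with upper-quartile factors (32.0%, 34.7%), 17 with library sizes alone (34.0%, 35.0%), 19 with DESeq2 (38.0%, 32.9%) and 19 without mitochondrial genes (38.0%, 33.5%). Without the filter it was 20 of 59 (33.9%), against 18.9% of all 33451 genes, and 4 passed the fold limit, RAB42 added. With limma it was 15 on log2(RPKM + 1) (30.0%, 30.6%), where 8 were higher and 7 lower, and 16 on log2(RPKM + 0.1) (32.0%, 30.7%), with 9 and 7. On log2(RPKM + 1), which understates changes of low genes, 0 RAB genes passed the fold limit. On both scales 3 genes of the prenylation list were called. On log2(RPKM + 1) without a filter 10 RAB genes were called (16.9%, against 13.2% of all genes; 5 higher), 0 passed the fold limit, and 3 genes of the prenylation list and 10 exchange factors were called. Without genes that share exon bases, where fewer genes were left, 9 of 22 RAB genes were called (40.9%, against 36.5% of all genes sharing none), 9 of 22 exchange factors, 4 of 19 activating proteins, 17 of 34 effectors, 1 of 4 RAB-like GTPases and 35 of 84 partner genes in all. With each library left out in turn, between 15 and 19 RAB genes were called (10 to 12 higher, 5 to 7 lower, and 3 past the fold limit in each fit), between 5091 and 5697 genes in all (27.3% to 30.4%), and between 3 and 6 of the prenylation list, 14 and 19 exchange factors, 10 and 12 activating proteins, 26 and 31 effectors, 2 RAB-like GTPases and 55 to 68 partner genes. Of the 18 single RAB genes called, between 15 and 18 stayed called in these fits. With the replicate number as a block, 18 RAB genes and 5953 genes in all were called, and the block changed no call of a RAB gene. Libraries that share a number did not deviate together (correlations -0.072, -0.012 and -0.046). These values gave no sign of pairing, but they cannot tell whether such libraries were prepared together. The cause of these changes was not tested where the alternative itself does not show it. Depth limits RAB3B, with at most 7 counts in EG, and the 9 genes left out by the filter.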

Other observations

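The effectors of RAB27, chosen here after their values were seen, did not move together. Beside SYTL5 and SYTL2, EXPH5, which tethers vesicles with RAB27, rose by 0.42 on the log2 scale, SYTL4, which acts in granule exocytosis, by 0.29 and UNC13D, which primes secretory granules, by 1.01. MLPH, the link of RAB27 to myosin V, fell by 0.15 on the log2 scale from 377 ± 13.8 to 339 ± 4.36 CPM (SD, n = 3 each). SYTL1 and SYTL3 were not called, with log2 fold changes of -0.04 and 0.15.

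Of the adaptors of RAB11, also chosen after their values were seen, RAB11FIP1 and RAB11FIP5 rose (log2 fold changes 1.17 and 0.34), and RAB11FIP2, RAB11FIP3 and RAB11FIP4 were not called (0.07, 0.03 and 0.15). EXOC6, the exocyst subunit that binds RAB11, rose from 27.2 ± 0.802 to 44.5 ± 1.74 CPM (SD, n = 3 each), which is a log2 fold change of 0.71. MYO5C, a relative of MYO5B in secretory epithelia, fell by 0.12 on the log2 scale, from 246 ± 5.23 to 226 ± 2.37 CPM, and MYO5A was not called (log2 fold change -0.34).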
